A study of Mus musculus with 2 samples.

Results

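The genes described here encode the chains that carry the T cell receptor signal into a CD8+ T cell. They are *Cd3g*, *Cd3d* and *Cd3e*, the invariant CD3 chains, *Cd247*, the zeta chain, and *Cd8a* and *Cd8b1*, the alpha and beta chains of the CD8 coreceptor. They were taken by symbol, and 6 of the 14732 gene symbols with a usable value in at least 1 library are members. All 6 had a value in both libraries. The samples were CD8+ T cells from spleen and lymph nodes of C57BL/6 OT-I transgenic mice aged 6 to 8 weeks, which carry a transgenic receptor for the ovalbumin peptide SIINFEKL. Both groups were activated with that peptide (2.5 ng/mL) and IL-2 (10 U/mL) for 24 h and then received retrovirus, empty in control and encoding Eomes in the other (Eomes-overexpressing cells, whose values are given as "with Eomes"). Human CD2 from the same vector was the marker by which transduced cells of both groups were sorted 48 h later, at 40000 cells per well, for a second culture of 3 days with the same doses. Eomes was thus driven by a retroviral vector in activated cells on top of the endogenous gene.

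In a T cell, the alpha beta receptor binds peptide and MHC but has almost no cytoplasmic tail. Signals pass instead through CD3 gamma-epsilon and delta-epsilon dimers and a zeta homodimer, whose tails carry the tyrosine motifs (ITAMs) that the kinase Lck phosphorylates and to which the kinase ZAP-70 binds. CD8 alpha and beta form the coreceptor that binds MHC class I and holds Lck through the alpha tail. CD8 alpha can also form a homodimer, whereas CD8 beta reaches the surface of a T cell only together with alpha. Epsilon occurs in both CD3 dimers, so the assembled receptor holds more epsilon than gamma or delta.

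A single library was sequenced per condition. Nothing in these data shows how far replicates of a condition would differ, and no p-value is given. Expression is given as RPKM, the number of reads scaled to transcript length and library depth, as the authors computed it. The size of 1 read in the low values of short genes placed the depth near 19300000 reads in control and 19100000 reads with Eomes. Intervals are 95% intervals from approximate reads at that depth. They cover counting error only and compare these 2 libraries. *Eomes* stood at 2.47 RPKM in control and 129.6 RPKM with Eomes, as labelled.

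All 6 chains had a lower RPKM in Eomes-overexpressing than in control OT-I cells. The decrease was largest for *Cd8a*, smaller for *Cd8b1* and *Cd3g*, smaller again for *Cd3d* and *Cd3e*, and within counting error for *Cd247*. Only *Cd8a* was past 1.5-fold, the fold threshold of the study. Past that threshold and lower with Eomes were 5.19% of the 9925 genes that reached 1 RPKM in either library (here called expressed), and 1.10% of the 1820 genes whose RPKM averaged 50 or more (here called abundant). The median log2 ratio over the 6 chains was -0.34, against -0.0037 over the expressed genes and -0.018 over the 1820 abundant genes. A log2 ratio under 0 was found for 50.5% of the expressed and 55.5% of the abundant genes.

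*Cd8a* stood at 181.8 RPKM in control and 99.1 RPKM with Eomes. The log2 ratio was -0.88 (interval -0.92 to -0.83), a level 45.5% lower, and about 10439 and 5631 reads lie behind it. Counted from the gene with the highest log2 ratio, *Cd8a* was at position 9688 of 9925 expressed genes. Among the abundant genes, 0.220% had a lower log2 ratio. *Cd8b1*, its partner in the heterodimer, stood at 197.3 RPKM in control and 142.5 RPKM with Eomes. Its log2 ratio was -0.47 (interval -0.53 to -0.41), a level 27.8% lower, at position 9211. The intervals of the log2 ratios of the 2 coreceptor chains did not overlap.

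*Cd3g*, which encodes the chain of the gamma-epsilon dimer that also takes part in down-modulation of the receptor, was the most abundant of the 6 in both libraries. It reached 264.4 RPKM in control and 196.4 RPKM with Eomes, which gives a log2 ratio of -0.43 (interval -0.49 to -0.37). *Cd3d*, which encodes the delta chain, had an RPKM of 189.4 and 159.0, a log2 ratio of -0.25 (interval -0.31 to -0.20). *Cd3e*, which encodes the epsilon chain, had an RPKM of 145.2 and 122.9, a log2 ratio of -0.24 (interval -0.31 to -0.17). The log2 ratios of *Cd3d* and *Cd3e* lay inside each other's interval, and the interval of *Cd3g* overlapped neither. *Cd247* stood at 83.9 RPKM in control and 80.9 RPKM with Eomes. Its log2 ratio of -0.053 had an interval of -0.14 to 0.035, and 39.3% of the abundant genes had a lower one. For *Cd247* a difference between the libraries was not detectable at this depth, whereas centring on genes of similar GC content gave -0.23.

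**Figure D1:**
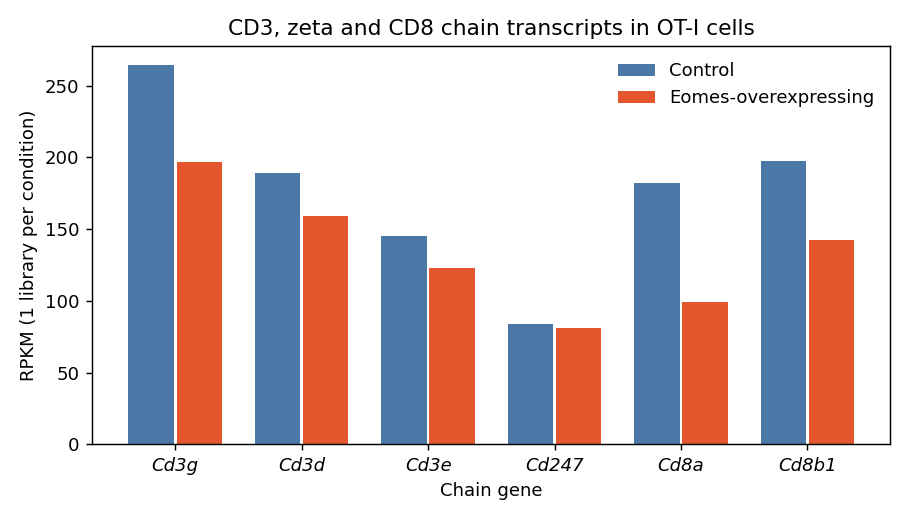
RPKM (y axis, linear from 0) of the 6 chain genes (x axis) in the control library and the Eomes-overexpressing library, 1 bar per library and no error bars. All 6 bars are lower with Eomes, from 181.8 to 99.1 for Cd8a and from 83.9 to 80.9 for Cd247.

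The 250 bases before the RefSeq start site (mm10, GRCm38.p6) are printed for the 5 chain genes with an entry, because these genes differed in how far their transcripts were lower in cells given a T-box factor. *Cd8b1* had no entry. Capitals mark matches on either strand to the T-box core AGGTGT and to the letters TGNGGT. The letters TGNGGT are a loose form of the RUNX core TGYGGT, where N is any base and Y only C or T. Each is written 5′ to 3′ on the strand of its gene.

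Cd8a (chr6:71373177-71373426, plus strand): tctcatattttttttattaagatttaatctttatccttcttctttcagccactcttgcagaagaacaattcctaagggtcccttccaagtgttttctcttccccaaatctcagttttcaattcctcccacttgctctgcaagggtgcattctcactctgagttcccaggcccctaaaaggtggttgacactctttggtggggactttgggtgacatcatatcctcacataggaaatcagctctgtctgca
Cd3g (chr9:44980432-44980681, minus strand): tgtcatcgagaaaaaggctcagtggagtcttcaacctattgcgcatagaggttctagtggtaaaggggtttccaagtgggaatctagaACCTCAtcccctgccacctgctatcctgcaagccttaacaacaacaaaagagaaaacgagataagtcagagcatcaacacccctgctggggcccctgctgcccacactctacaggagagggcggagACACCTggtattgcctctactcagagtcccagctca
Cd3d (chr9:44981536-44981785, plus strand): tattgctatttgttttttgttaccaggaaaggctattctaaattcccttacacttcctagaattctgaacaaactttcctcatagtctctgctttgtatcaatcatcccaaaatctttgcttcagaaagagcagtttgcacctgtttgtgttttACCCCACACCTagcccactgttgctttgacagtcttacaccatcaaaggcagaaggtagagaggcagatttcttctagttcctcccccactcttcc
Cd3e (chr9:45009612-45009861, minus strand): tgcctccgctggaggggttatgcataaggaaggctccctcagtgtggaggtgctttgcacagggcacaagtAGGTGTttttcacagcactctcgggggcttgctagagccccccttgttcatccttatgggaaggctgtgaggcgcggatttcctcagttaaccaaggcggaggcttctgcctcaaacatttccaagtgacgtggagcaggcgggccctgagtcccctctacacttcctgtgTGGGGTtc
Cd247 (chr1:165788431-165788680, plus strand): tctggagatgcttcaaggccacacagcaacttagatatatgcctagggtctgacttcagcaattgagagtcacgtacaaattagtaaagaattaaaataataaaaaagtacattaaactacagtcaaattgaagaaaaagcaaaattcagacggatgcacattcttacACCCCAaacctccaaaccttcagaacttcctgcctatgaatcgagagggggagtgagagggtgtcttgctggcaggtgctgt

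The T-box letters were found before *Cd3g*, *Cd3d* and *Cd3e*, with 1 match each starting 36, 91 and 179 bases before the start site. They were not found in this window of *Cd8a* or *Cd247*. Of the 32851 promoters of the same length in the table, 11.8% held them. The letters TGNGGT occurred once each before *Cd3g*, *Cd3d*, *Cd3e* and *Cd247* and not before *Cd8a*, and 40.1% of all promoters held them. Read on the matching strand, each of these matches has A or G at the N, so none is the RUNX core TGYGGT. In *Cd3d* the T-box match and the TGNGGT match share a base. In *Cd3g* the T-box letters overlap the E-box letters CANNTG, which are present in all 5 windows and in 66.2% of all promoters. The ETS letters GGAAGT occurred in the windows of *Cd3d*, *Cd3e* and *Cd247* and in 19.7% of all promoters. A match of letters is a description of the sequence, and Eomes binding was not analysed here.

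Since RPKM is per transcript length, levels of different chains can be set side by side within a library, as far as the lengths used by the authors hold. Ratios between chains within a library also do not depend on the scaling between libraries. In control cells the order of RPKM was *Cd3g*, *Cd8b1*, *Cd3d*, *Cd8a*, *Cd3e* and *Cd247*. In Eomes-overexpressing cells it was *Cd3g*, *Cd3d*, *Cd8b1*, *Cd3e*, *Cd8a* and *Cd247*, so that *Cd8a* was at the fifth place and below *Cd3e*. The closest neighbours in control were *Cd8b1* over *Cd3d*, with an RPKM ratio of 1.04 (interval 1.005 to 1.08), and *Cd3d* over *Cd8a*, also 1.04 (1.01 to 1.08). These 3 genes can hardly be ordered, since there is no replicate and the ratio also carries any error in length. The closest neighbours with Eomes were *Cd3d* over *Cd8b1*, with an RPKM ratio of 1.12 (interval 1.07 to 1.16). The highest chain was 3.15 times the lowest in control and 2.43 times the lowest with Eomes.

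The coreceptor chains were close to parity in control, where the ratio of *Cd8a* to *Cd8b1* RPKM was 0.921. It was 0.695 with Eomes. The log2 difference of the ratio was -0.41 (interval -0.48 to -0.33). Expressed as a share, *Cd8a* made up 48.0% of the summed RPKM of both CD8 chains in control and 41.0% with Eomes. The value of *Cd8a* is 1 per library, so that its splice forms were not told apart.

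Among the CD3 chains, *Cd3e* was below both *Cd3g* and *Cd3d* in either library. These are transcript levels. The amounts of chain protein, of which epsilon is shared by both dimers, were not measured here. The ratio of *Cd3e* to the sum of *Cd3d* and *Cd3g* was 0.320 in control and 0.346 with Eomes, a log2 difference of 0.11 (interval 0.035 to 0.19). The ratio of *Cd3d* to *Cd3g* was 0.716 and 0.809, a log2 difference of 0.18 (interval 0.095 to 0.26). The 3 CD3 transcripts were thus closer to each other with Eomes, with the highest 1.82 times the lowest in control and 1.60 times with Eomes. Of the 15 possible pairs of chains, the ratio of *Cd3d* to *Cd3e* differed least between the libraries, by -0.012 on the log2 scale (interval -0.097 to 0.073).

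The ratio of *Cd247* to *Cd3e*, that is of zeta to epsilon transcripts, was 0.578 in control and 0.658 with Eomes, a log2 difference of 0.19 (interval 0.078 to 0.30). Centring on genes of similar GC content gave -0.023 in its place, and the cause was not tested. Zeta was the least abundant chain transcript of the receptor in both libraries. The RefSeq-linked transcripts of *Cd247* run from 1317 to 2713 bases, and which of them were counted is not known.

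Coreceptor transcripts were also lower relative to CD3. The ratio of *Cd8a* to *Cd3e* was 1.25 in control and 0.806 with Eomes, so the order of the pair was exchanged. Its log2 difference was -0.64 (interval -0.72 to -0.55). For *Cd8b1* to *Cd3e* the ratio was 1.36 and 1.16, a log2 difference of -0.23 (interval -0.32 to -0.14). The ratio of *Cd3g* to *Cd8b1* differed by 0.041 (interval -0.043 to 0.12), an interval that includes 0. Summed over chains, the CD8 RPKM was 379.1 in control and 241.6 with Eomes (log2 ratio -0.65), and the sum of CD3 and zeta chains was 682.9 and 559.2 (-0.29). Together the 6 chains made up 0.189% and 0.146% of all RPKM. In cultures of many cells, fewer cells with a transcript and less transcript per cell cannot be told apart.

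**Figure D2:**
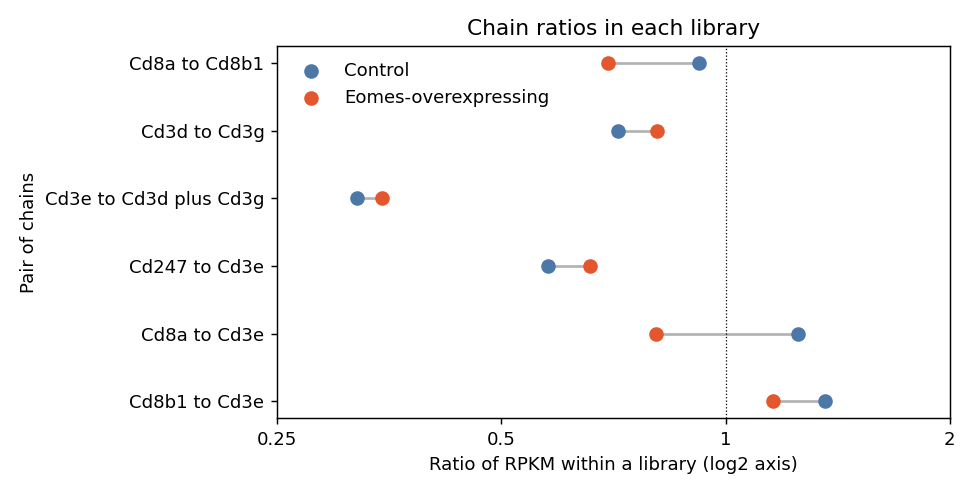
Ratio of the RPKM of 1 chain to that of another within a library (x axis, log2 scale) for 6 pairs of chains (y axis), with 1 point per library and a line joining them. The Cd8a to Cd3e pair crosses the dotted line at a ratio of 1, from 1.25 in control to 0.806 with Eomes, while Cd3d to Cd3g goes from 0.716 to 0.809.

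The spread of log2 ratios over genes of similar abundance gives the setting for these differences. For the 1820 abundant genes, 95% of log2 ratios lay between -0.42 and 0.35, with the tails cut equally. *Cd8a*, *Cd8b1* and *Cd3g* lay below that range, with *Cd3g* at its lower edge. *Cd3d*, *Cd3e* and *Cd247* lay inside it. Only 1 of the 6 chains was past 1.5-fold, as were 20 of the 1820 abundant genes in the same direction.

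**Figure D3:**
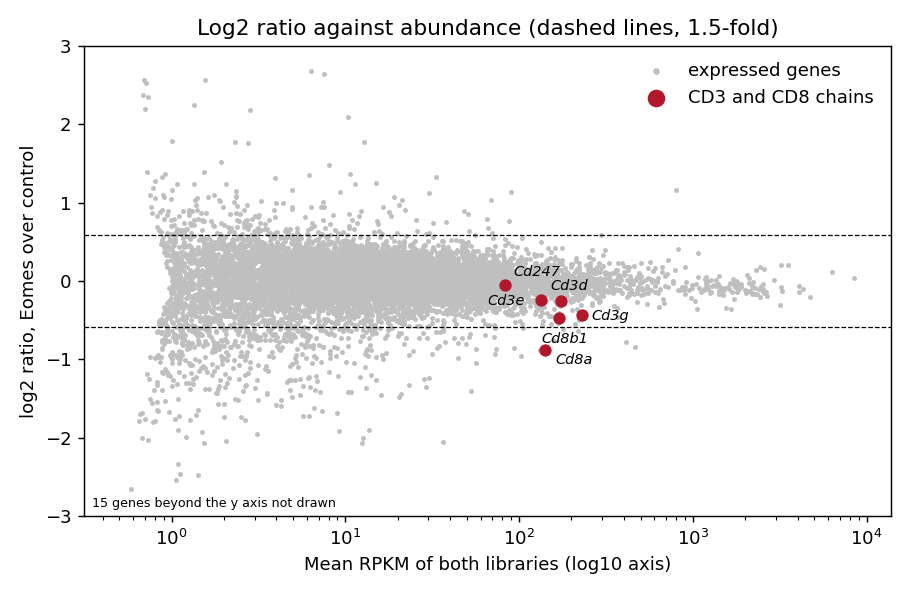
Log2 ratio of Eomes over control (y axis) against the mean RPKM of both libraries (x axis, log10 scale) for the expressed genes (grey) and the 6 chains (red), with dashed lines at 1.5-fold. The chains lie between -0.88 and -0.053, Cd8a alone below the lower line, and 15 genes beyond a log2 ratio of 3 in either direction are not drawn.

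The chains lie at 3 places in the genome (mm10, GENCODE vM21). *Cd3g* (chromosome 9, 44969572 to 44980431, minus strand) and *Cd3d* (44981786 to 44987339, plus strand) point away from each other, with 1355 bases between their start sites. *Cd3e* (44998740 to 45009627, minus strand) starts 27.8 kb further on. *Cd8b1* (chromosome 6, 71322788 to 71337494) and *Cd8a* (71373427 to 71379173) lie on the plus strand with 50.6 kb between their start sites. *Cd247* is on chromosome 1 (165788681 to 165877277, plus strand). Its far end overlaps *Pou2f1* on the other strand, whose RPKM of 1.88 and 2.10 was far below that of *Cd247*.

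Of the 4 coding genes next to the Cd8 genes, *Smyd1* was lower and the others had log2 ratios between -0.035 and 0.16. *Krcc1* stood at 6.31 RPKM in control and 6.67 RPKM with Eomes. *Rmnd5a*, which encodes a part of a ubiquitin ligase complex, had an RPKM of 10.8 and 12.0, and *Rnf103* of 2.96 and 2.89. Their log2 ratios were 0.080, 0.16 and -0.035. The interval of *Rmnd5a*, 0.054 to 0.27, lay above 0, and those of *Krcc1* and *Rnf103* included 0. The log2 ratio of *Krcc1* was -0.20 after centring on genes of similar GC content. *Smyd1*, best known as a muscle methyltransferase, lies next to *Cd8b1* and had a log2 ratio of -1.49 (interval -2.27 to -0.74), below that of both Cd8 genes. It was under an RPKM of 1 in both libraries (0.93 and 0.33) and so is not among the expressed genes.

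On 1 side of the Cd3 cluster, *Ube4a*, which encodes a ubiquitin ligase, stood at 11.2 RPKM in control and 12.1 RPKM with Eomes. *Atp5l*, an ATP synthase subunit gene, had an RPKM of 339.6 and 325.4. On the other side, the myelin protein zero-like genes *Mpzl2* and *Mpzl3* were lower, with a log2 ratio of -0.70 (interval -1.04 to -0.38, RPKM 3.43 and 2.11) and -0.69 (-0.86 to -0.51, RPKM 10.7 and 6.63). Both were past 1.5-fold with intervals that span it, and none of the 3 *Cd3* genes between these flanks was past it. Near *Cd247*, the log2 ratios of *Rcsd1*, *Creg1* and *Pou2f1* were 0.24, 0.16 and 0.16, and *Dusp27* was not listed.

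**Figure D4:**
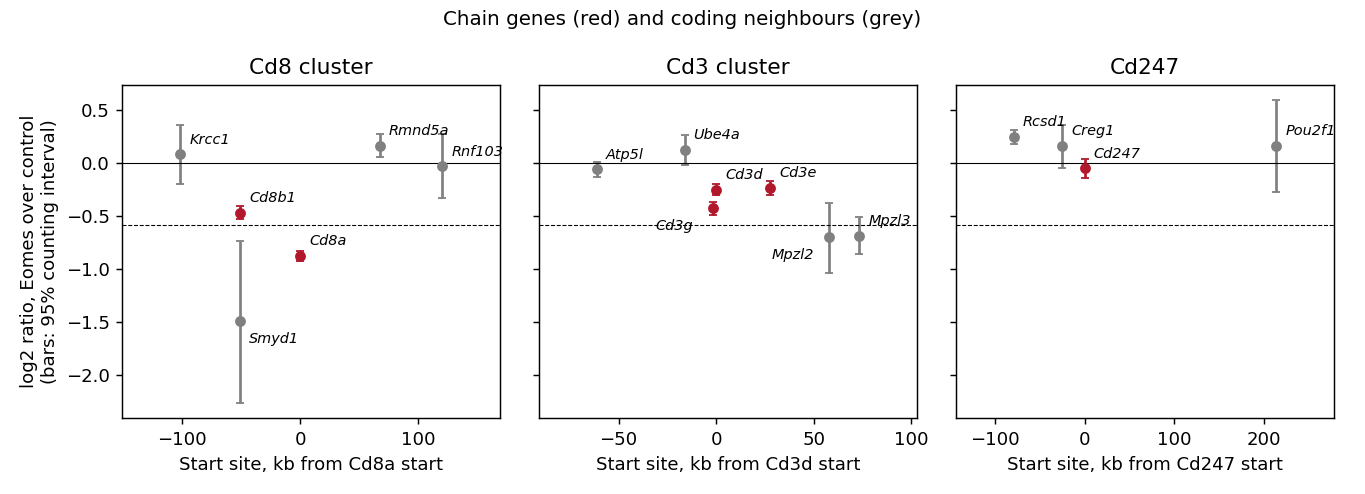
Log2 ratio of Eomes over control (y axis, with 95% counting intervals) against the distance of each gene's start site from that of Cd8a, Cd3d or Cd247 (x axis, kb), with chain genes in red and the coding genes beside them in grey. Both Cd8 genes lie below 0, as does Smyd1 at -1.49, while the other neighbours of the Cd8 genes lie between -0.035 and 0.16. Mpzl2 and Mpzl3 beside the Cd3 cluster lie lower than the Cd3 genes, at -0.70 and -0.69.

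Of the enzymes that act on these chains, *Ptpn6*, which encodes the phosphatase SHP-1, differed most. As the background of each list, 2.46% of the expressed genes were higher and 5.19% lower past 1.5-fold, with a median of -0.0037. Of 8 expressed kinases and phosphatases, none was past 1.5-fold, 3 were above and 5 below a log2 ratio of 0, and the median was -0.058. *Lck*, the kinase bound to CD8 alpha, stood at an RPKM of 277.8 in control, against 252.2 with Eomes, for a log2 ratio of -0.14. *Ptpn6* stood at 194.5 RPKM in control and 146.3 RPKM with Eomes, and its log2 ratio of -0.41 (interval -0.46 to -0.36) was close to the -0.43 of *Cd3g*. The next largest were 0.22 for *Ptprc*, which encodes CD45, -0.16 for *Fyn* and 0.16 for *Ptpn22*. *Zap70* had a log2 ratio of -0.076. Centring on genes of similar GC content gave -0.30 for *Ptpn6*, 0.040 for *Ptprc*, 0.058 for *Ptpn22* and -0.032 for *Lck*, and turned the direction of *Zap70*, to 0.034.

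Of 11 expressed receptor-associated adaptors, 1 was lower past 1.5-fold and none higher, with a median log2 ratio of -0.056. The sign of this median depended on the minimum RPKM, with 0.26 at a minimum of 5 and 0.10 without a minimum. *Tespa1*, required for receptor signalling in thymocytes, stood at 2.67 RPKM in control and 0.99 RPKM with Eomes. *Sh2d2a*, which encodes an Lck-binding adaptor, was higher by 0.55 on the log2 scale and just under 1.5-fold. *Nck1*, whose product binds CD3 epsilon, had a log2 ratio of 0.43 (interval 0.11 to 0.75), and *Sit1* of -0.42. Centring on genes of similar GC content gave -1.51 for *Tespa1*, 0.66 for *Sh2d2a*, 0.15 for *Nck1* and -0.32 for *Sit1*. Among 8 expressed genes of receptor down-modulation, 1 was lower past 1.5-fold and none higher, with a median of 0.057. This was *Sla*, encoding the adaptor SLAP that brings the ubiquitin ligase Cbl to the zeta chain, with an RPKM of 47.2 and 27.6 (log2 ratio -0.77). The others with the largest differences were *Itch* (0.31), *Sla2* (-0.21) and *Cbl* (0.20). After centring by GC content the values were -0.85 for *Sla*, 0.13 for *Itch*, -0.19 for *Sla2* and 0.13 for *Cbl*.

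*Fcer1g* encodes the Fc receptor gamma chain, a relative of zeta that also carries an ITAM. It was higher with Eomes, with an RPKM of 8.85 and 21.1 and a log2 ratio of 1.25 (interval 0.94 to 1.58). Its level was below that of *Cd247* in both libraries. *Hcst*, which encodes a transmembrane adaptor without an ITAM, stood at 16.1 RPKM in control and 15.7 RPKM with Eomes. *Tyrobp* was under 1 in both. These 3 genes were counted as 1 list, whose 2 expressed genes were *Fcer1g* and *Hcst*. Of the 2, only *Fcer1g* was higher past 1.5-fold, and their median was 0.61. Of the T cell receptor chains searched by symbol, 5 of 6 had no row in the tables and were not analysed here, and *Ptcra*, the pre-T alpha chain, was under an RPKM of 1 in both libraries.

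Among 20 expressed transcription factor genes known for a role at the Cd8 or Cd3 genes or in T cell identity, 3 were lower past 1.5-fold and 1, *Eomes* itself, was higher. The median was 0.11. *Runx3*, the factor of the CD8 lineage that acts at the Cd8 enhancers, stood at an RPKM of 54.4 in control, against 60.7 with Eomes, for a log2 ratio of 0.16 (interval 0.097 to 0.22). The 3 lower genes were *Tox* (log2 ratio -2.04), *Tcf7* (-1.71) and *Tbx21* (-0.92). *Tox* and *Tcf7* were low in both libraries, with an RPKM of 3.32 and 0.81 for *Tox* and of 2.12 and 0.65 for *Tcf7*, and a pseudocount of 1 gave -1.26 and -0.92. *Tbx21*, which encodes T-bet, the T-box relative of Eomes, had an RPKM of 41.0 and 21.6.

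**Figure D5:**
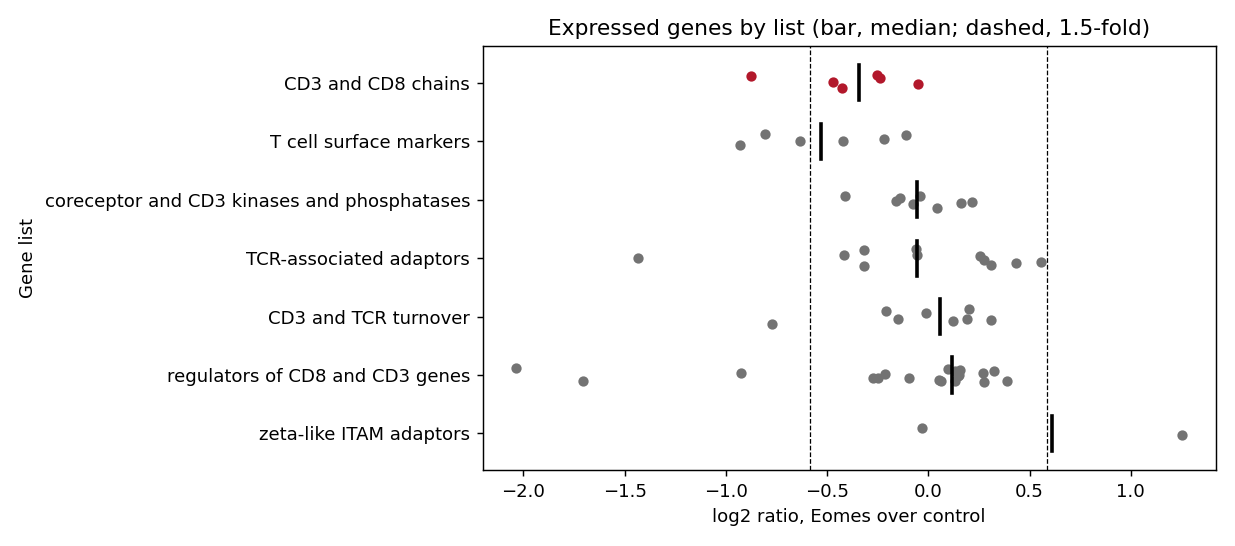
Log2 ratio of Eomes over control (x axis) for the expressed genes of each list (y axis), 1 point per gene, with the median as a bar and dashed lines at 1.5-fold, and with Eomes itself left out of the points. The 6 chains have a median of -0.34 and the T cell surface markers of -0.53, whereas the kinases and phosphatases are centred at -0.058.

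Of 6 other surface markers of T cells, 3 were lower past 1.5-fold, and all 6 had a log2 ratio under 0 (median -0.53). Over the expressed genes these shares were 5.19% and 50.5%, and 1.10% and 55.5% over the abundant genes. The 3 were *Cd5* (-0.93), *Cd6* (-0.81) and *Cd2* (-0.64), adhesion and regulatory receptors at the contact with the antigen-presenting cell. *Cd27* (-0.42) and *Cd28* (-0.22) were not past 1.5-fold. *Cd6*, *Cd27* and *Cd28* averaged under 50 RPKM, so they are not among the abundant genes. *Thy1* stood at an RPKM of 1195.3 in control, against 1108.7 with Eomes, for a log2 ratio of -0.11.

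In cells labelled as CD8+, *Cd4* stood at 0.03 RPKM in control and 0.08 RPKM with Eomes. Of 39 markers of 8 other cell types, 14 were listed in neither file, among them *Ms4a1* and *Pax5* of B cells, and *Csf1r*, *Lyz2* and *Adgre1* of macrophages, and 8 reached an RPKM of 1 in at least 1 library. The constant genes of the gamma delta receptor were not listed, but neither were those of the alpha beta receptor, so their absence carries no information about gamma delta T cells. The summed RPKM of the lists was 14.3 in control and 11.8 with Eomes for CD4 T cells, of which *Zbtb7b* gave 13.8 and 11.6. The sums were 2.55 and 1.61 for gamma delta T cells, 2.87 and 1.62 for B cells, 1.40 and 1.28 for macrophages and monocytes, and 2.77 and 1.93 for dendritic cells. Fibroblast markers summed to 1.92 and 1.68 and erythroid markers to 0.61 and 0.31. For NK cells the sum was 1.87 in control and 7.14 with Eomes, of which *Klrb1c* gave 0.31 and 5.74 and *Klre1* 1.51 and 1.40. *Ncr1* and *Klra8* of that list had no listed value in either library. The part of these markers in the lower CD8 level was not tested.

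With 2 libraries, the pattern of a gene is its RPKM in each. The 3 genes nearest to *Cd8a* by distance of log2 RPKM over these 2 libraries were *Tnfrsf4*, encoding the costimulatory receptor OX40 (distance 0.12, RPKM 171.3 and 93.5), *Tigit* (0.22, RPKM 161.3 and 109.1) and *Capg* (0.26, RPKM 161.5 and 113.6). Those nearest to *Cd3e* were *Lsp1*, *Mtch1* and *Spn*, at distances of 0.041, 0.053 and 0.061.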

How the data were processed

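The data are 1 RNA library each from control and Eomes-overexpressing OT-I cells. Per the series' design text and the paper's methods, SOAPnuke filtered the reads, HISAT and Bowtie2 mapped them to mm10, and RSEM gave the expression values. Tool versions and the annotation are not given in the sources used here. The authors deposited FPKM values, which their methods call RPKM, with 2 decimals and listed from 0.01 upward. Rows whose symbol had become a date, 20 in control and 19 with Eomes, were not used.

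A floor of 0.01 stood in for genes without a listed value, and log2 ratios are Eomes-overexpressing over control. Analyses used Python 3.11.15, numpy 2.4.6, pandas 2.3.3, scipy 1.17.1 and matplotlib 3.10.9. FPKM values up to 1 of 351 and 349 genes with a RefSeq-linked transcript under 1500 bases fell on steps of whole reads. At the depth that fitted best, 69.8% and 67.0% of them were within 0.15 of a whole read. Without steps, 30% would be at a depth fixed beforehand. The depth was chosen on these same values, so 30% is too low a reference for a best fit. Approximate reads use the shortest RefSeq-linked GENCODE vM21 transcript, and log2 ratios have exact (Clopper-Pearson) 95% intervals. Intervals of ratios between chains are normal approximations on the log scale. Depth estimate, intervals and calls were tested on simulated data that held counting error only and used the same transcript lengths. Errors in length and differences between replicates were therefore not covered. No test was made between conditions.

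The chains, gene lists and promoter motifs were chosen with earlier results of these data known. Named were all chains, up to 4 expressed genes of each pathway list with the largest log2 ratio in either direction, *Lck* and *Runx3*, 2 coding neighbours on each side, and the 3 genes nearest to *Cd8a* and *Cd3e*. *Zap70*, *Tyrobp*, *Ptcra* and single markers were named after their values were seen. Alternatives were pseudocounts of 0.1 and 1, other minimum values (none, 5), a 2-fold threshold, scaling to TPM (dividing by the sum of FPKM in a library), to the median or to a trimmed mean (30%), and centring in 20 bins of GC content.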

Additional observations from a re-analysis of the deposited data

How the results depend on the processing

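No paired analysis was possible because each condition has 1 library, and leaving out a replicate was not possible for the same reason. The log2 ratios of the 6 chains kept their sign under all alternatives tried, and *Cd8a* alone stayed past 1.5-fold. They differed by more than counting error under centring by GC content, to -0.95 for *Cd8a*, -0.50 for *Cd3g* and -0.23 for *Cd247*. The GC content of the RefSeq-linked *Cd247* transcripts runs from 43.3% to 52.6%, and the longest was used. Under the same centring the log2 difference of the ratio was -0.51 for *Cd8a* to *Cd8b1*, 0.27 for *Cd3d* to *Cd3g*, -0.023 for *Cd247* to *Cd3e* and -0.74 for *Cd8a* to *Cd3e*. The cause was not tested.

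Of the 9925 expressed genes, 244 were higher and 515 lower past 1.5-fold. These counts were 1356 and 2088 without a minimum RPKM, 95 and 213 with a minimum of 5, 69 and 175 at 2-fold, and 118 and 285 with a pseudocount of 1. Without a minimum RPKM, 2 zeta-like adaptors, 1 receptor-associated adaptor and 1 gene of receptor turnover were higher. Of the receptor-associated adaptors 1 was higher after scaling to TPM and 1 after centring by GC content, and 0 were lower with a minimum of 5. With a 2-fold threshold 0 genes of receptor turnover were lower, and with a minimum of 5 there was 1 lower transcription factor gene. Of 66 other genes with a log2 ratio, 23 differed by more than counting error after centring by GC content, 4 with a pseudocount of 1 and 2 after scaling to TPM. The sign changed for 7 under GC centring, among them *Zap70*, *Themis* and *Krcc1* (to 0.034, -0.0068 and -0.20), and for 2 under scaling to TPM. Depth limits the genes under an RPKM of 1 most.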
